A study of Macaca fascicularis and Macaca mulatta and Papio anubis with 20 samples.

Results

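MRGPRX1-positive spots are the places on sections of Macaca fascicularis dorsal root ganglia where the transcript of the itch receptor MRGPRX1 was counted at least 2 times. The sections were measured with Visium, a spatial assay in which RNA from a tissue slice binds to an array of barcoded spots, and a unique molecular identifier (UMI) lets copies of the same molecule be counted as 1. Each spot covers a small region, which may include parts of several neurons, glia and connective tissue cells. Spots under tissue with at least 2000 UMIs qualified, and 149 of 7814 qualifying spots (1.91%) in 15 sections were MRGPRX1-positive. Another 7119 spots held 0 MRGPRX1 UMIs and are called MRGPRX1-free, and 546 held exactly 1 and belong to neither class. Both classes were chosen by the measured MRGPRX1 UMI count, so values of MRGPRX1 itself are a description without a test.

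The sections fall under 4 title codes, 1 female and 1 male in each of 2 labelled batches, each called a specimen here. The labels name no genotype, treatment, age or ganglion level, and they do not say whether a title code is 1 animal. The ganglia were fresh frozen, bought from a commercial source of primates, and cut at 10 µm with 100 µm between sections. The specimen is a pairing block in the gene tests below. Their p-values weigh the class difference within specimens against its variation over these 4 specimens, which is estimated partly from all genes together. They do not measure the spread in level between specimens. The 2 classes did not draw on the sections of a specimen in equal proportion: section 1 of the female of batch 2 gave 43 of the 69 positive but 274 of the 2086 free spots of that specimen, and 1 section of the male of batch 2 gave free spots only.

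MRGPRX1 is a G protein-coupled receptor of the Mas-related family, found in small-diameter sensory neurons of primates and known as a receptor for itch-causing peptides and for chloroquine. It couples to Gq proteins, which act through phospholipase C beta, inositol trisphosphate and protein kinase C. In sensory ganglia, small unmyelinated neurons carry pain, itch and temperature, while large myelinated neurons carry touch and the sense of position and are rich in neurofilaments. Small-fibre classes are told apart by growth factor receptors such as RET with its co-receptors, by peptides such as the calcitonin gene-related peptides, and by somatostatin (SST), the peptide of a class linked to itch.

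Section totals under tissue ran from 1136433 to 7073134 UMIs. Neuronal genes were well represented in both classes: the 9 measured genes of a 10-gene pan-neuronal list summed to between 14220 and 16630 CPM (UMIs of a gene relative to all UMIs of the summed spots, scaled as counts per 1e6) in positive spots and between 13100 and 16490 CPM in free spots. In the first gene comparison below, edgeR called THY1 of these 9 genes higher and SNAP25 lower in positive spots. DESeq2 called SNAP25 lower but not THY1. Positive spots held more UMIs. Their median UMI count per section lay between 4390 and 19152, against 2736 to 9294 for free spots. It was higher in 14 of the 14 sections that had a positive spot. The median ratio was 2.06. The class rule is a raw count, which favours deeper spots by itself, so this difference is a description without a test. Because depth moves with the class, values with free spots matched to positive spots on UMIs are given beside several results. The male specimen of batch 2 gave only 5 positive spots with 37269 UMIs in all, so that 1 UMI is worth 26.8 CPM there, against 1.02 to 2.23 CPM in the other specimens.

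Positive spots were unevenly spread over the sections. The female specimen of batch 1 had 38 positive spots of 1925 (1.97%), the male of batch 1 had 37 of 2525 (1.47%), the female of batch 2 had 69 of 2321 (2.97%) and the male of batch 2 had 5 of 1043 (0.479%). Section 1 of the female of batch 2 alone held 43 of them, 11.7% of its spots (exact 95% interval 8.56 to 15.4), while the other 3 sections of that specimen lay between 0.733% and 1.69%. One section of the male of batch 2 held 0 positive spots of 155, which allows a share of up to 2.35% by the exact interval. Intervals cover counting error only. The mean share was 2.47% in the 2 female and 0.972% in the 2 male specimens, a difference that an exact two-sided permutation test gave p = 0.33, the smallest value 2 against 2 can reach. The means were 1.73% in batch 2 and 1.72% in batch 1 (p = 1 in the same exact test). Without section 1 of the female of batch 2, the mean of batch 2 was 0.906% and that of the females 1.65%.

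**Figure D1:**
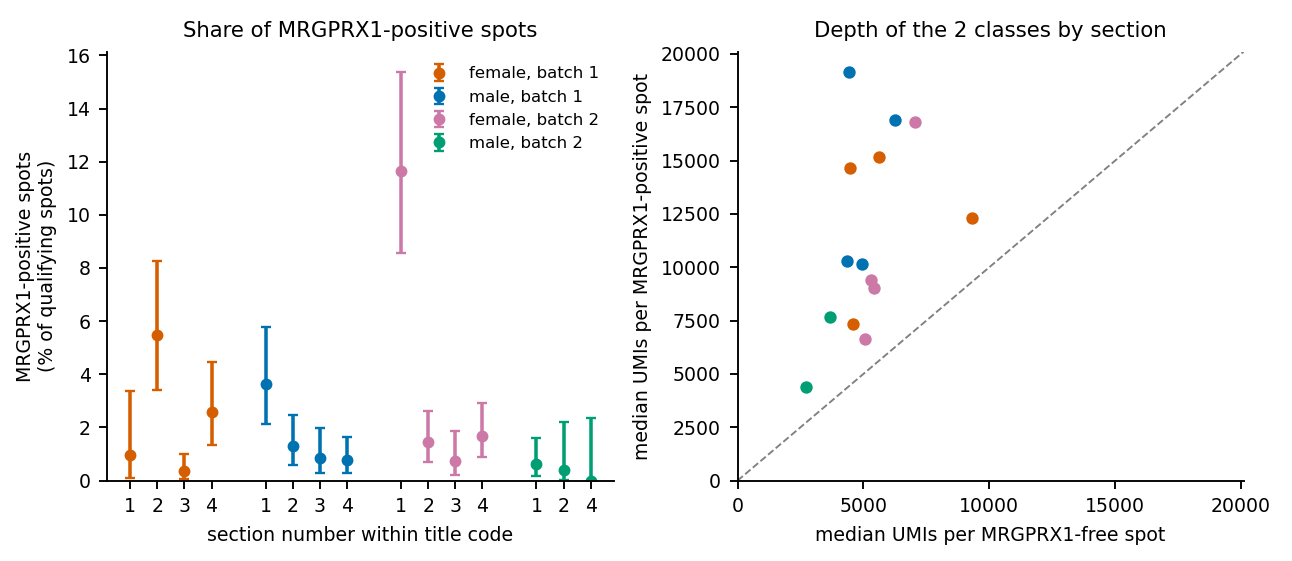
Left, the share of qualifying spots that were MRGPRX1-positive in each of 15 sections, with exact 95% binomial intervals, coloured by specimen. Right, the median UMIs of positive spots against free spots in the 14 sections with a positive spot, with the dashed line marking equality; every point lies above it, and section 1 of the female of batch 2 stands apart on the left at 11.7%.

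MRGPRX1 was sparse even where it was found. Of the positive spots, 103 held 2 UMIs, 30 held 3, 13 held 4, 2 held 5 and 1 held 6. They carried 364 of the 967 MRGPRX1 UMIs under tissue (37.6%). MRGPRX1 stood at 162 CPM in the positive spots of the female of batch 1, 187 in the male of batch 1, 183 in the female of batch 2 and 268 in the male of batch 2. When every spot was thinned to 2000 UMIs, only 7 spots kept at least 2. The receptor was also counted outside tissue, with 59 UMIs at a pooled level of 11.8 CPM against 15.8 CPM under tissue. The order differed between sections. Section 2 of the male of batch 1 was at 27.2 CPM outside and 19.8 under tissue, and section 1 of the female of batch 2 at 7.66 and 40.9. The minimum of 2 UMIs marks a range of counts and not a cell type.

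In the pooled spots, MRGPRX1 counts were more frequent in spots richer in neuronal RNA. When qualifying spots of each section were ranked by their share of pan-neuronal genes, a UMI was found in 3.99% of spots in the lowest 25%, 7.86% in the next, 11.5% in the one after and 12.2% in the highest 25%. Within specimens the share rose at each step in both specimens of batch 1, from 3.32% to 13.3% and from 3.80% to 15.5%. In the female of batch 2 it was highest in the third group, and in the male of batch 2 it was 3.45%, 2.70%, 5.75% and 3.82%, with no steady rise. Depth rose along the same order, from 3346 to 7642 UMIs (medians of section medians). After thinning to 2000 UMIs the shares were 1.59%, 2.52%, 3.64% and 3.16%, with the highest 25% again below the group before it in the female of batch 2, at 2.92% against 4.84%. The pooled levels were 11.1, 15.3, 20.1 and 19.4 CPM. The share in the lowest 25% was measured the same way in spots poor in neuronal RNA, but at lower depth. How much of it is background was not tested. Of the 149 positive spots, 75 (50.3%) lay above the cut that the richest 25% of free spots passed in their section.

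In raw counts, positive spots also lay near each other. Raw counts favour deeper spots, and the neighbours were not thinned or matched on UMIs. How much of the difference follows depth was not tested. Among the qualifying array neighbours of positive spots, 28.8% held at least 1 MRGPRX1 UMI and 11.2% held at least 2, against 9.09% and 1.78% among the neighbours of free spots. Free spots rich in neuronal RNA had nearly the same neighbours as free spots in general, at 9.01% and 1.82%. By specimen the share of neighbours with at least 1 UMI was 31.5%, 19.9%, 34.2% and 12.0% for positive spots in the female and male of batch 1 and the female and male of batch 2, and 8.64%, 10.5%, 10.1% and 4.45% for free spots. The order was the same in every specimen, with 25 neighbours behind the value for the male of batch 2. Section 1 of the female of batch 2 held 83 of the 205 neighbours of positive spots with at least 1 UMI and 44 of the 80 with at least 2. Without it the shares were 23.1% and 6.81% for positive spots, against 8.54% and 1.47% for free spots, and that specimen's share of neighbours with at least 1 UMI was 16.2% against 7.76%. By section, positive spots had the higher share in 10 of 14 sections and the lower share in 4. Positive spots lay at the tissue edge in 10.7% of cases, against 19.6% of free spots, with the lower share in each of the 4 specimens. In the authors' deposited table, Moran's I of MRGPRX1, which is above 0 where nearby spots have similar counts, had a median of 0.0109 over 16 sections and a range of -0.00475 to 0.132. Their adjusted p-value was below 0.05 in 4 of those sections.

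The first comparison asked which genes differ between positive and free spots. Positive spots had higher levels of SCN11A, PRKCD, PLCB3, SYNPR and CHRNA3, with fitted folds between 2.36 and 3.3, and lower levels of the large-fibre genes NEFH, NEFL and PVALB. Of 9492 genes tested with edgeR, 1427 (15.0%) were called at an adjusted p below 0.05, 590 of them higher (6.22%) and 837 lower (8.82%). The median log2 change over all genes tested was -0.05. The number of calls depended on the tool: DESeq2 called 527, all of them among the 1427 and in the same direction, and limma-voom called 810, of which 53.3% were higher, against 41.35% with edgeR. With a free spot of equal UMIs set against each positive spot, 723 genes were called, 628 of them among the 1427 and all 628 in the same direction. With sums per section and the section as block, 1185 genes were called, 1070 of them among the 1427 and all 1070 in the same direction. Leaving out the female of batch 1 gave 743 calls, the female of batch 2 gave 859 and the male of batch 1 gave 872. In summed spots, more cells of a type and more RNA per cell cannot be told apart.

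Among 12 nociceptor channels, 11 had a row and 5 passed the filter on low counts. Of these 5, 1 rose and 0 fell, where 6.22% of all genes tested rose and 8.82% fell. The list counts below stand beside the same shares. SCN11A, the sodium channel NaV1.9 of small nociceptors, was at 1041, 1306, 508 and 510 CPM in positive spots of the female and male of batch 1 and the female and male of batch 2. In free spots it was at 314, 428, 131 and 339 CPM in the same order. It was higher in 4 of 4 specimens, and a log2 change of 1.64 (SE 0.10, adjusted p = 1.85e-59) puts it 3.13-fold up. The gap was narrowest in the male of batch 2.

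TRPV1, the capsaicin and heat receptor, was not called (log2 change 0.22, SE 0.14, adjusted p = 0.376). Its levels in positive spots were 57.5, 64.7, 180 and 0 CPM, and in free spots 82.4, 86.2, 95.7 and 58.2 CPM, so that only the female of batch 2 was higher. SCN9A, the sodium channel NaV1.7, had a log2 change of 0.55 (adjusted p = 0.0568), PIEZO2, a mechanosensitive channel, 0.28 and ASIC3, an acid-sensing channel, -0.54, none of them called. With free spots matched on UMIs, ASIC3 was called lower (-0.95, SE 0.25, adjusted p = 0.00277). SCN10A with 13 UMIs and TRPA1 with 35 UMIs in positive spots were too low to enter the test. Without the male of batch 2, whose 5 spots hold the filter up, TRPA1 was tested and called higher (log2 change 1.65, SE 0.40, adjusted p = 0.00051), and SCN9A was called as well. P2RX3 had no row under its symbol.

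The Gq pathway that MRGPRX1 uses was represented by 12 of 14 listed genes, of which 6 were tested, 3 rose and 2 fell. PRKCD, protein kinase C delta, was at 110, 172, 168 and 26.8 CPM in positive spots and at 38.5, 54.5, 39.4 and 53.3 CPM in free spots, in the same order of specimens. The female and male of batch 1 and the female of batch 2 were higher and the male of batch 2, with a single UMI, was lower; the log2 change was 1.72 (SE 0.14, adjusted p = 3.07e-34). PLCB3, the phospholipase C beta isoform of nociceptors, was at 260, 243, 175 and 107 CPM against 99.3, 116, 61.4 and 158 CPM. Its log2 change was 1.24 (SE 0.12, adjusted p = 6.55e-24), again with the male of batch 2 in the other direction.

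GNA14, a Gq-family alpha subunit, was at 101, 89.3, 39.7 and 26.8 CPM against 50.1, 53.9, 16.5 and 28.6 CPM, with a log2 change of 0.96 (SE 0.17, adjusted p = 1.07e-06). The inositol trisphosphate receptors ITPR1 and ITPR3, which release stored calcium, were lower, at log2 changes of -0.98 (adjusted p = 0.0342) and -0.63 (adjusted p = 0.0151). Neither was called by DESeq2, ITPR3 lost its call without either specimen of batch 1, and ITPR1 lost it without any 1 of the 3 larger specimens. With free spots matched on UMIs ITPR3 was at -0.30 (adjusted p = 0.584), while ITPR1 was too low to test. PRKCA was not called (log2 change 0.42). GNAQ, PLCB1, PLCB4, PRKCE, PIRT and GRK3 were too low to test, with 0 UMIs of GNAQ in positive spots, and GNA11 and GNA15 had no row under their symbols.

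Other receptors of the MRGPR family were rare. MRGPRE, an orphan member, was at 84.4, 93.7, 130 and 134 CPM in positive spots and 74.3, 68.3, 102 and 140 CPM in free spots, and was not called (log2 change 0.29, adjusted p = 0.167). MRGPRF was not called either (log2 change 0.69, adjusted p = 0.15). MRGPRX2, the mast cell receptor of the family, had 0 UMIs in positive spots, MRGPRX3 had 9, MRGPRX4, a bile acid receptor, had 20 and MRGPRD, a beta-alanine receptor, had 9, all too few for the test. MRGPRX4 stood at 5.39, 20.1, 8.13 and 0 CPM in positive spots against 1.67, 1.93, 1.51 and 2.22 CPM in free spots. In the fit without the male of batch 2, the specimen at 0 CPM, MRGPRX4 was called higher (log2 change 2.62, SE 0.53, adjusted p = 2.26e-05). MRGPRX3 was at 4.44 CPM in pooled positive and 0.533 CPM in pooled free spots. It could pass the filter of that fit only with its positive spots, so its log2 change of 3.24 (SE 0.85) is a description without a test. The MRGPRX genes are close copies of each other, so reads of one could be counted under another, and these values are uncertain.

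Of 15 genes linked to itch, 13 had a row and 5 passed the filter. OSMR and SST were called higher and 0 lower, but OSMR passed the filter only with its positive spots. OSMR, the oncostatin M receptor subunit that also serves the itch cytokine IL-31, was at 10.8, 22.3, 12.2 and 0 CPM in positive spots and 3.65, 4.62, 3.67 and 5.43 CPM in free spots. Its log2 change of 1.80 (SE 0.37) rests on 28 UMIs and is a description without a test. SST was at 133, 154, 264 and 107 CPM against 84.4, 108, 119 and 174 CPM, higher in 3 of 4 specimens with a log2 change of 0.76 (SE 0.12, adjusted p = 1.58e-08). That call was lost under DESeq2 and with free spots matched on UMIs (log2 change 0.20, adjusted p = 0.378).

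IL4R and IL13RA1, subunits of the receptors for interleukins 4 and 13, and the kinase JAK1 changed by 0.09, 0.03 and 0.09 on the log2 scale and were not called. NPPB, the natriuretic peptide of an itch pathway, had 12 UMIs in positive spots, IL31RA had 2 and the histamine receptor HRH1 had 0. The leukotriene receptor CYSLTR2, with 11 UMIs, entered only the fit without the male of batch 2, where it was called higher (log2 change 2.13, SE 0.68, adjusted p = 0.0158). Pooled free spots held only 1.44 CPM of it, so positive spots may have carried it past the filter. HTR1F and NPY2R had no row under their symbols.

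All 6 trophic receptors had a row and 5 were tested, of which 2 rose and 1 fell. RET, the signalling receptor of the GDNF family, was at 650, 603, 342 and 376 CPM in positive spots and 359, 336, 206 and 263 CPM in free spots. It was higher in 4 of 4 specimens, with a log2 change of 0.77 (SE 0.10, adjusted p = 1e-12). Its neurturin co-receptor GFRA2 was at 230, 181, 231 and 0 CPM against 111, 112, 79.7 and 63.6 CPM (log2 change 1.09, SE 0.12, adjusted p = 9.78e-18), a call that DESeq2 did not make. NGFR, the low-affinity neurotrophin receptor, was called lower (log2 change -0.31, adjusted p = 0.0195), which was lost under DESeq2 and on leaving out any of 3 specimens, while GFRA1 and GFRA3 were not called.

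Neuropeptides and secretory proteins were split: of 5 tested, 3 rose and 2 fell. CALCB, which encodes the beta form of calcitonin gene-related peptide, was at 1492, 1881, 1386 and 1315 CPM in positive spots and 1044, 1335, 896 and 1286 CPM in free spots. The groups differed little in the male of batch 2, and the log2 change was 0.45 (SE 0.09, adjusted p = 3.69e-05). CALCA, the alpha form, rose by 0.35 (SE 0.10, adjusted p = 0.00394) and SCG3, a secretory granule protein, by 0.73 (SE 0.10, adjusted p = 1.73e-12); the CALCA call was lost under DESeq2 and on leaving out any of 3 specimens. TAC1, the substance P precursor, fell by 0.28 on the log2 scale (adjusted p = 0.0374) and SCG2 by 0.48 (adjusted p = 0.000952), and DESeq2 called neither. The TAC1 call was lost without the female of batch 1, the male of batch 1 or the male of batch 2, and the SCG2 call without the female of batch 1. The female of batch 2 was higher for TAC1, at 690 against 500 CPM, while the other 3 specimens were lower.

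Large-fibre genes were lower in positive spots. Of 13 listed, 12 had a row, 7 were tested, 5 fell and 0 rose, with a median log2 change of -1.02. NEFH, the heavy neurofilament subunit of myelinated neurons, was at 1496, 1928, 1186 and 751 CPM in positive spots and 8078, 6627, 6350 and 2695 CPM in free spots. Every specimen was lower and the class ranges did not overlap (log2 change -2.20, SE 0.10, adjusted p = 5.04e-98). PVALB, parvalbumin of proprioceptive neurons, was at 102, 163, 181 and 26.8 CPM against 447, 557, 560 and 252 CPM (log2 change -1.84, SE 0.12, adjusted p = 2.53e-48). NEFL, the light neurofilament subunit, fell by 1.21 (adjusted p = 9.89e-34). RUNX3, a transcription factor of proprioceptors, changed by -1.0 (adjusted p = 0.0412) and SPP1, osteopontin, by -1.02 (adjusted p = 0.0469). The RUNX3 call was lost on leaving out any of 3 specimens and the SPP1 call without the male of batch 2, with library totals in place of TMM scaling, and with free spots matched on UMIs (-0.80, adjusted p = 0.187). NTRK2 and ETV1 were not called, and NTRK3 was too low to test.

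Small-fibre surface and cytoskeletal genes moved the other way: of 8 listed, 6 had a row, 5 were tested, 5 rose and 0 fell, with a median log2 change of 0.65. SYNPR, the synaptic vesicle protein synaptoporin, was at 178, 290, 291 and 403 CPM in positive spots and 53.5, 82.9, 101 and 166 CPM in free spots. Both classes were highest in the male of batch 2, and within each specimen positive spots were higher (log2 change 1.61, SE 0.11, adjusted p = 1.77e-41). CD55, a complement regulator, rose by 0.83, S100A10, which carries channels to the membrane, by 0.65, PRPH, the neurofilament-related peripherin of small neurons, by 0.54 and the hyaluronan receptor CD44 by 0.37. DESeq2 called 4 of these 5 genes, without CD44, whose call was also lost on leaving out any 1 of the 3 larger specimens; that of S100A10 was lost without section 1 of the male of batch 2. The transcription factor list had 1 of 11 genes tested: TLX3, a selector of excitatory sensory fates, rose by 0.51 (adjusted p = 0.000609), which was lost without the female of batch 1, under DESeq2 and with free spots matched on UMIs (0.19, adjusted p = 0.472).

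In the list for low-threshold C-fibres and cold, CHRNA3, a nicotinic receptor subunit of a class of silent nociceptors, was the 1 gene of 3 tested that rose. It stood at 77.2, 80.3, 48.8 and 107 CPM against 23.4, 28.3, 16.5 and 68.6 CPM, higher in 4 of 4 specimens (log2 change 1.52, SE 0.18, adjusted p = 1.56e-14). TRPM8, the cold and menthol receptor, was not called (-0.64, adjusted p = 0.464), nor was TAFA4. Among opioid genes OPRL1, the nociceptin receptor, was lower (-1.17, adjusted p = 0.0132, 15 UMIs in positive spots) but not under DESeq2 or without either female specimen, and the enkephalin precursor PENK was not called (-0.55, adjusted p = 0.461). OPRM1, OPRD1, OPRK1 and PDYN were too low to test.

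**Figure D2:**
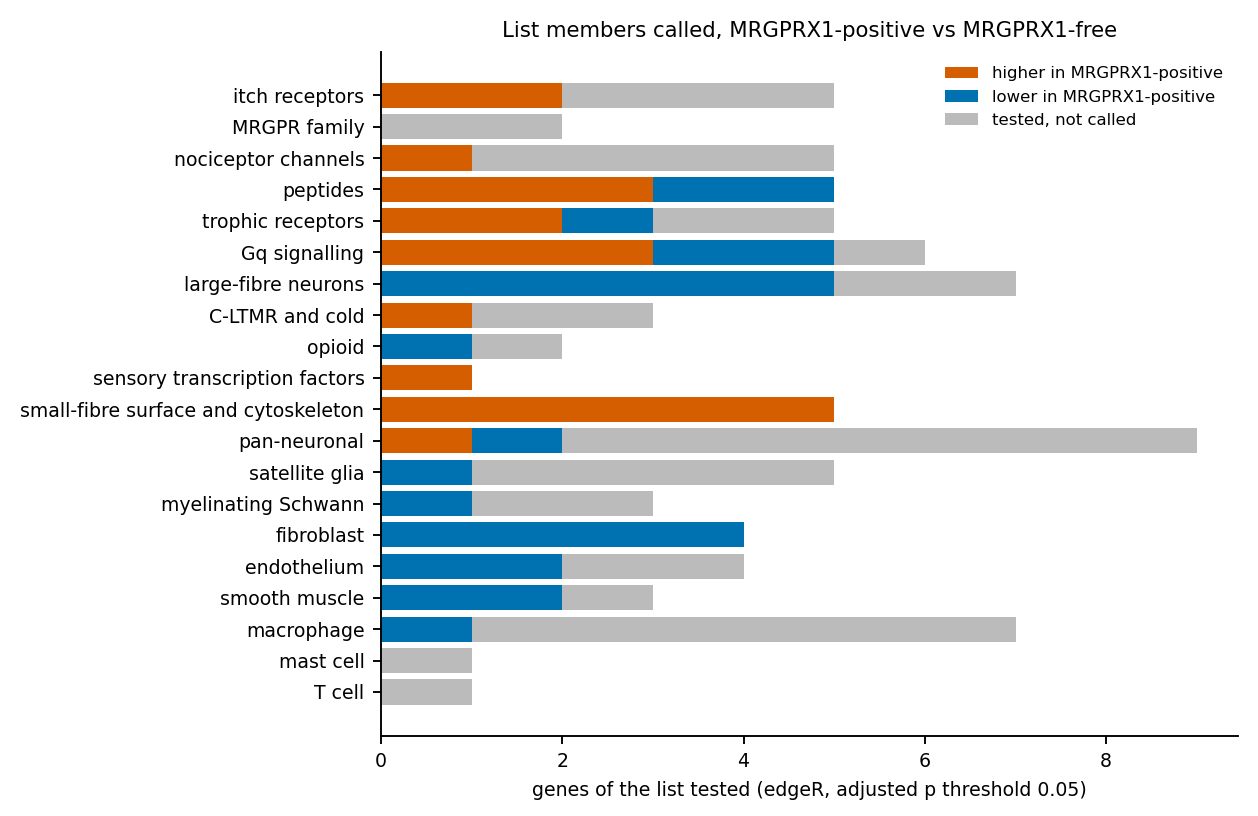
Number of genes of each list that were tested in positive against free spots and called higher (orange), called lower (blue) or not called (grey) by edgeR. All 5 small-fibre genes tested were higher, and large-fibre and fibroblast genes were called only in the lower direction.

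Outside the lists, the largest rises that passed a rule on level and on direction in 4 of 4 specimens were led by KCNK18, the potassium channel TRESK of sensory neurons. It was at 18, 13.4, 64.0 and 26.8 CPM in positive spots and 4.68, 7.10, 10.7 and 10.9 CPM in free spots (log2 change 2.1, SE 0.25, adjusted p = 8.87e-15). LPO, lactoperoxidase, rose by 1.77 and L3MBTL3, a reader of methylated lysine, by 1.78. The chemokine CCL1 was at 37.7, 35.7, 200 and 53.7 CPM against 14.1, 15.7, 58.3 and 36.0 CPM (log2 change 1.56, SE 0.17, adjusted p = 3.94e-18). GPAT2, an acyltransferase of lipid synthesis, rose by 1.55, FAM3B, a secreted cytokine-like protein, by 1.54, TMEM233, a small membrane protein of sensory neurons, by 1.51, GIP, the gastric inhibitory polypeptide precursor, by 1.5 and CPNE5, a calcium-dependent lipid-binding protein, by 1.48. SCN11A, SYNPR and CHRNA3 complete these 12 genes. In the male of batch 2, 1 UMI is worth 26.8 CPM. For genes of low level, the direction in that specimen therefore rests on single UMIs. With free spots matched on UMIs, GIP was no longer called (log2 change 0.71, adjusted p = 0.115) and GPAT2 was at 0.75 (adjusted p = 0.048).

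The 10 largest falls by the same rule held both neuronal and connective tissue genes. NSG1, an endosomal protein of neurons, was at 82.6, 71.4, 88.4 and 188 CPM in positive spots and 287, 245, 465.8 and 228 CPM in free spots (log2 change -2.03, SE 0.14, adjusted p = 2.1e-45). OMG, an inhibitor of axon growth, changed by -3.07, SYT3, a calcium sensor of vesicle fusion, by -2.26, and TRIM54 and SMPX, best known from muscle, by -2.91 and -2.13. MGP, matrix Gla protein, was at 3.59, 15.6, 2.03 and 0 CPM against 61.4, 58.6, 21.8 and 5.18 CPM (log2 change -2.89, SE 0.34, adjusted p = 4.8e-15). The Wnt inhibitor SFRP4 changed by -2.52, the parathyroid hormone receptor PTH1R by -2.29 and the matrix protein THBS1 by -2.09, and NEFH is the tenth gene. The SYT3 call was lost without the female of batch 2. OMG rested on 8 UMIs and MGP on 11 UMIs in positive spots. In the male of batch 2 the absence of UMIs counts as a fall, as for MGP.

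Fibroblast markers were lower in positive spots, and markers of other cell types were so only in part. Over all genes tested, 8.82% were called lower. Fibroblast genes summed to between 886 and 1880 CPM in positive spots and between 1129 and 4793 CPM in free spots, and 4 of 4 tested fell, with DCN, decorin, at a log2 change of -1.30 (SE 0.12, adjusted p = 1.65e-23). PDGFRA, a defining receptor of fibroblasts, had 0 UMIs in positive spots and 0.247 CPM in the free spots of 1 specimen, with 0 in the other free spots. Myelinating Schwann cell genes fell in 1 of 3 tested cases (PRX, periaxin, at -0.67), endothelial genes in 2 of 4, smooth muscle genes in 2 of 3, satellite glia genes in 1 of 5 and macrophage genes in 1 of 7. Mast cell genes summed to between 11.2 and 40.2 CPM in positive and 13.3 and 37.1 CPM in free spots, and T cell genes to at most 10.8 and 13.9 CPM. When free spots were matched on UMIs, 1 of 4 fibroblast genes was still called (APOD, apolipoprotein D, at -0.52) and DCN was at -0.20 (adjusted p = 0.423), while LUM was at -0.63 (adjusted p = 0.0818) and COL1A2 at -0.10. The calls of PRX (0.26, adjusted p = 0.473), the endothelial gene VWF (-0.25, adjusted p = 0.755), the smooth muscle gene TAGLN (-0.14, adjusted p = 0.809) and the macrophage gene AIF1 (-0.47, adjusted p = 0.493) were also lost, and those of the endothelial gene EGFL7 (-0.60) and the satellite glia gene EDNRB (-0.52, adjusted p = 0.0436) were kept. ACTA2, the other smooth muscle gene that fell, was too low to test after matching. DESeq2 called the 4 fibroblast genes, EGFL7 and TAGLN lower in the unmatched comparison, but not PRX, VWF, ACTA2, EDNRB or AIF1. In the matched comparison the myelin gene PMP22 was called higher (0.34, adjusted p = 0.000231). The matched values of NEFH (-2.01), PVALB (-1.74), SCN11A (1.26), PRKCD (1.68) and PLCB3 (1.03) were all called. The part of these other cells in the results of the unmatched comparison was not tested beyond this.

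**Figure D3:**
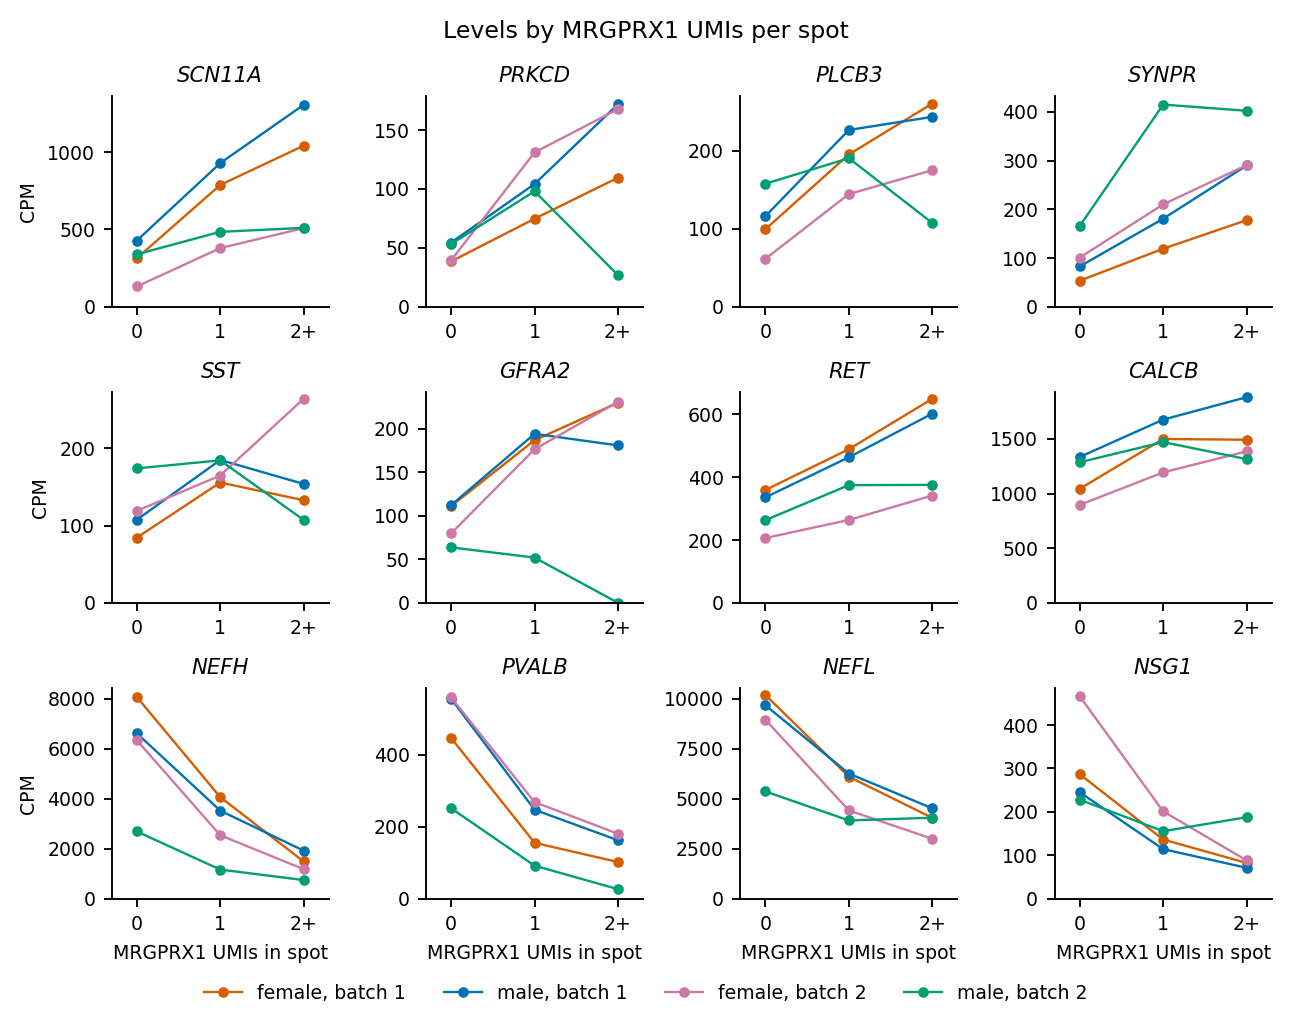
Level (CPM, linear axis from 0) of 12 genes in spots with 0, 1, or 2 or more MRGPRX1 UMIs; each line is 1 of the 4 specimens. SCN11A rose and NEFH and PVALB fell from 0 to 2 or more UMIs in all 4 specimens, while SST, PRKCD, PLCB3 and GFRA2 turned the other way in the male of batch 2, which has 5 spots in the highest group.

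Levels of a few genes are given on both sides of the 2-UMI minimum, with no test between neighbouring counts. SCN11A had a mean level of 303 ± 125 CPM (SD, n = 4) in spots with 0 MRGPRX1 UMIs, 645 ± 257 in spots with 1, 853 ± 462 in spots with 2 and 847 ± 302 (n = 3) in spots with 3 or more. For NEFH the means were 5938 ± 2291, 2829 ± 1273, 1456 ± 561 and 1208 ± 242 CPM in the same order. PRKCD, in the same order, had means of 46.4 ± 8.65, 102 ± 23.1, 114 ± 64.8 and 168 ± 43.0 CPM. The UMI minimum decided few members: 149 positive spots remained at a minimum of 1000 UMIs and 148 at 3000.

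A second comparison kept only spots rich in neuronal RNA, to set positive spots against free spots above the same cut in neuron share. It held 75 positive spots and 1784 free spots. The pan-neuronal list summed to between 15810 and 18090 CPM in these positive spots and between 16550 and 20380 CPM in these free spots. That sum was higher in positive spots in 1 of 4 specimens. Of 7148 genes tested, 948 (13.3%) were called, 430 higher (6.02%) and 518 lower (7.25%); DESeq2 called 348, and 485 were called with free spots matched on UMIs. The male of batch 2 contributed 2 positive spots. Without the female of batch 1, the female of batch 2 or the male of batch 1, 420, 499 and 538 genes were called.

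SST and CCK had larger fold changes among neuron-rich spots than among all spots. Among neuron-rich spots it was at 126, 169, 313 and 207 CPM in positive spots of the female and male of batch 1 and the female and male of batch 2, and at 61.2, 64.3, 62.3 and 133 CPM in free spots. All 4 specimens were higher, with a log2 change of 1.65 (SE 0.16, adjusted p = 2.81e-23), which was still called at 0.99 (adjusted p = 6.46e-06) with free spots matched on UMIs. CCK, cholecystokinin, was at 16.8, 21.7, 49.6 and 51.8 CPM against 9.22, 13.2, 13.2 and 13.7 CPM. It was called here (log2 change 1.42, SE 0.31, adjusted p = 0.000149), though not without the female of batch 2, and was not called among all spots (0.22, adjusted p = 0.65). The difference between the comparisons was not tested for either gene.

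Other large rises among neuron-rich spots were SCN11A (1.70), SYNPR (1.67), CCL1 (1.71), FAM3B (1.69), the tight junction protein CLDN3 (1.67), GPAT2 (1.60), the prostaglandin D2 receptor PTGDR (1.59) and the retinol carrier RBP4 (1.44). CCL1 was not called without the female of batch 2, and GPAT2 not with free spots matched on UMIs (0.66, adjusted p = 0.282). RBP4 was among the most abundant, at 472, 645, 527 and 726 CPM in positive spots and 213, 249, 133 and 395 CPM in free spots. All 3 Gq genes that rose among all spots were called here too, PRKCD at 1.90, PLCB3 at 1.35 and GNA14 at 1.23. GFRA2 rose by 1.20 and RET by 0.65, while NGFR changed by -0.65. All 5 small-fibre genes tested rose, though PRPH (0.33, adjusted p = 0.0182) was not called by DESeq2 or on leaving out any 1 of the 3 larger specimens.

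On the lower side, NEFH was at 1308, 1356, 985 and 726 CPM in neuron-rich positive spots and 9986, 7924, 7162 and 2955 CPM in neuron-rich free spots (log2 change -2.76, SE 0.12, adjusted p = 1.45e-106). All 4 values in positive spots were under the lowest value in free spots. PVALB changed by -2.08 and NEFL by -1.51, and 3 of 5 large-fibre genes tested were called. TAFA1, a chemokine-like peptide, was at 5.59, 8.66, 0 and 0 CPM against 25.2, 28.9, 24.3 and 14.6 CPM, and HOPX, CSRP2, SMPX and SYT3 were the other large falls. ASIC3 (-1.05, adjusted p = 0.003) was called lower here, though not by DESeq2 or without either female specimen; with free spots matched on UMIs it was at -1.24 (adjusted p = 0.00422). Fibroblast genes summed to between 622 and 1770 CPM in positive and 799 and 2582 CPM in free spots, with 3 of 4 called lower. Schwann cell genes were called in 0 of 2 tests. Of 6 macrophage genes tested, CD74 and C1QA were called higher and 0 lower.

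**Figure D4:**
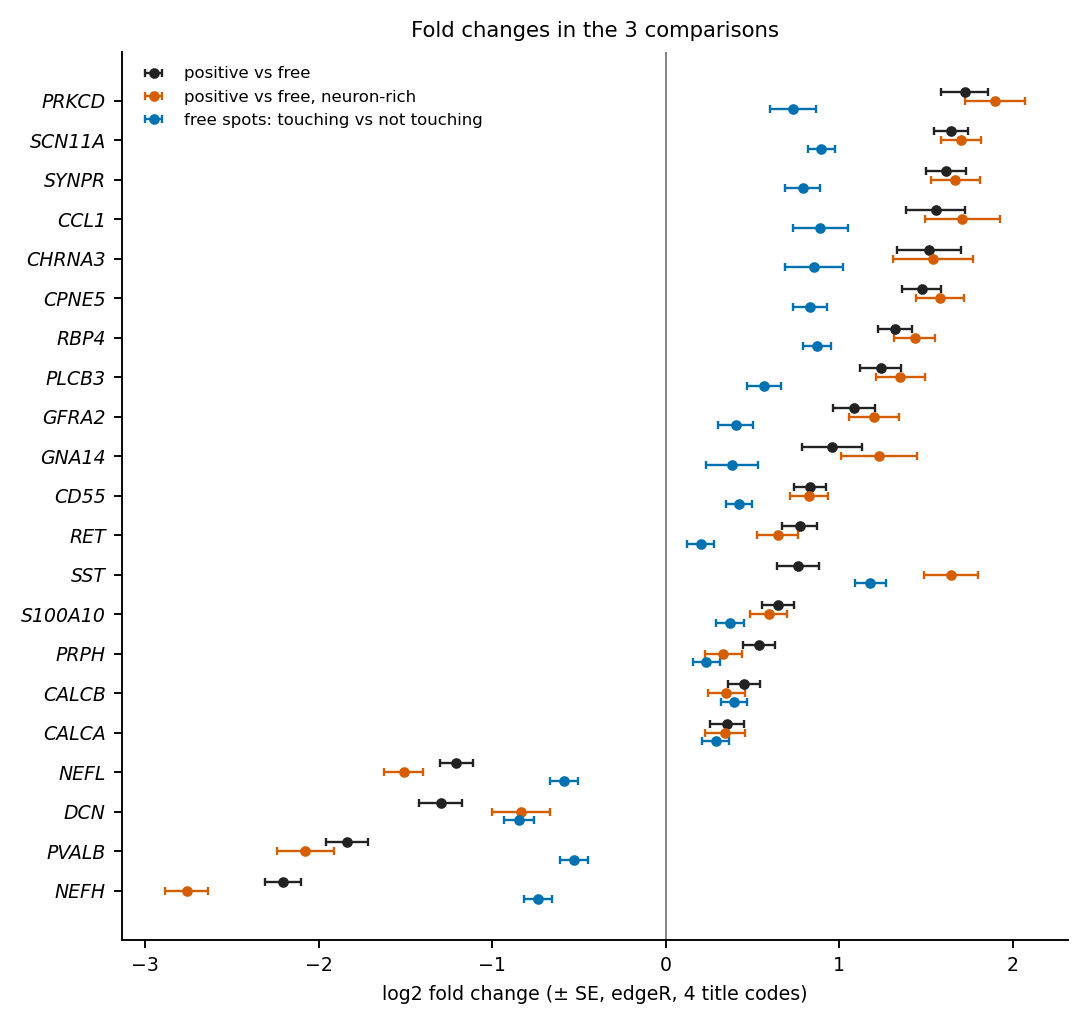
Log2 fold change with its standard error for 21 genes in 3 comparisons: positive against free spots (black), the same among neuron-rich spots (orange), and free spots that touch a positive spot against free spots that do not (blue). SCN11A, SYNPR and SST lie to the right of 0 and NEFH, PVALB and NEFL to the left in all 3.

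The third comparison looked at the surroundings. It set 454 free spots with a positive spot among their 6 array neighbours against 5138 free spots with no MRGPRX1 count in any neighbour, so that MRGPRX1 was 0 in both groups. Of 9576 genes tested, 539 (5.63%) were called, 246 higher (2.57%) and 293 lower (3.06%). DESeq2 called 169, sums per section gave 239, and leaving out section 2 of the female of batch 1 or section 1 of the male of batch 1 gave 252 and 358.

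Touching spots had more SST, at 190, 208, 199 and 268 CPM in the female and male of batch 1 and the female and male of batch 2, against 66.0, 88.7, 97.5 and 167 CPM in the other free spots. All 4 specimens were higher (log2 change 1.18, SE 0.09, adjusted p = 1.06e-37). SCN11A was at 550, 611, 200 and 403 CPM against 235, 346, 109 and 331 CPM (log2 change 0.90, SE 0.08, adjusted p = 3.6e-27). Both genes were thus higher in free spots beside positive spots, but the 2 groups drew on the sections unequally. Section 1 of the female of batch 2 gave 80 of the 170 touching but 125 of the 1538 other spots of that specimen. Section 2 of the female of batch 1 gave 57 of 114 and 147 of 1300. Differences between sections can therefore enter these values. The 2 groups were also not matched on UMIs or thinned, so how much depth enters these values was not tested. In the first comparison, SST lost its edgeR call with free spots matched on UMIs (log2 change 0.20, adjusted p = 0.378). With the section as block, 216 of the 239 genes called were among the 539, all 216 in the same direction. CCK rose by 1.22, RBP4 by 0.87, TRPA1 by 1.17 (adjusted p = 0.0282), PENK by 0.81 (adjusted p = 0.0398) and TRPV1 by 0.32 (adjusted p = 0.046). The opioid genes, PENK among them, summed to between 0 and 54.5 CPM in touching spots and between 9.85 and 34.3 CPM in other free spots. That sum was higher in touching spots in only 1 of 4 specimens. NEFH changed by -0.74 and PVALB by -0.53, and 4 of 7 large-fibre genes tested were called lower.

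Some genes were called in positive spots but not around them. In touching spots RET was at a log2 change of 0.20 (adjusted p = 0.123), GNA14 at 0.38 (adjusted p = 0.123) and LPO at 0.33 (adjusted p = 0.41). The difference between these comparisons was not tested. Fibroblast genes were called lower in touching spots too, in 4 of 4 tests, with DCN at -0.85 (adjusted p = 9.21e-20, edgeR). The fibroblast list summed to between 1252 and 3280 CPM in touching spots and between 1151 and 5276 CPM in other free spots. That sum was higher in touching spots in 1 of 4 specimens. Of 7 macrophage genes tested, CD163 and C1QA were called higher and 0 lower. In a check chosen after seeing the data and restricted to free spots below the top 25% in neuron share, 399 of 9072 genes tested (4.40%) were called, 168 higher (1.85%) and 231 lower (2.55%). Among them were 1 of 4 itch genes, 4 of 5 small-fibre genes and 4 of 5 peptide genes, all higher.

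Batch and sex were asked of the class difference itself. The batch term was called for 8 of 9492 genes (0.0843%), 5 upward in batch 2 (0.0527%) and 3 downward (0.0316%): SPP1, PCP4, PTN, SFRP5, ACTA2, TRPV1, GFAP and a gene without a symbol. TRPV1 had a log2 difference of 1.24 (SE 0.28, adjusted p = 0.0184), with 180 CPM in the positive spots of the female of batch 2 and 0 UMIs in the 5 of the male of batch 2. SPP1 was at 936 and 987 CPM in positive spots against 2759 and 2672 CPM in free spots of batch 1, and at 965 and 537 CPM against 1039 and 854 CPM in batch 2 (difference 1.22, SE 0.18, adjusted p = 4.1e-07). DESeq2 called 0 genes for batch, and leaving out single sections gave between 1 (without section 2 of the female of batch 1) and 9, with 2 without section 1 of the female of batch 2. For sex, edgeR called 0 genes (0.00%), with 373 at an unadjusted p below 0.05, and DESeq2 called 0, with 50.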

How the data were processed

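The authors' deposited matrices give UMI counts for each feature in each spot. Per the file headers, Space Ranger 2.0.0 made those of the 8 sections of batch 1, and 2.1.0 those of 7 sections of batch 2. The submitters' processing notes name the build Mmul_10, while feature identifiers carry the Ensembl prefix of M. fascicularis (ENSMFAG); of 22000 features 15068 have a symbol. The authors also deposited Moran's I (a score) and its p-values for each section, which are only described. One section of the male of batch 2 had no matrix and was left out, as were the sections of other labelled species.

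Counts were summed over the spots of a class within a title code and tested with edgeR 4.0.16 (robust quasi-likelihood fit, TMM, filterByExpr, title code as block, Benjamini-Hochberg adjustment at 0.05 over all genes tested), in R 4.3.3. MRGPRX1 got no test, nor did the pan-neuronal list where it chose spots. Levels are CPM over all features of the summed spots. The title code is a pairing block because both classes come from sections of the same title code, in unequal proportion. Alternatives used DESeq2 1.42.0 and limma 3.58.1. The fits were tested on simulated data. Section pairs of a specimen (21) differed by a chi-square of at least 3.93 per degree of freedom, so none was counted as a duplicate. Spot barcodes name array positions and are shared between sections by design; no doublet caller was run.

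The spots, gene lists and tests were chosen with earlier results of these data known. Named genes were the 12 largest rises and 10 largest falls (10 and 6 among neuron-rich spots) with an adjusted p below 0.05, at least 20 CPM in the higher class and 1 direction in 4 of 4 specimens, the members of the fixed lists, and a fixed panel. Some list members are not reported here and are left out of the list counts.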

Additional observations from a re-analysis of the deposited data

Results flagged for a closer look

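Section 1 of the female of batch 2 had 11.7% positive spots, far from the 1.69% of the next section and the 0.733% of the lowest of that specimen. Without it the specimen's share was 1.33%, and 1017 genes were called between positive and free spots, 968 of them among the 1427 called with it, all 968 in the same direction. For PLCB3 the log2 ratio of CPM between positive and free spots among neuron-rich spots was -0.77 in the male of batch 2, which rests on 2 positive spots, while the lowest of the other specimens was at 1.28. These 2 came from 73 groups of values examined, and chance alone flags about 1 in 20, so chance could give as many. The class difference of TRPV1 differed between batches by 1.24 on the log2 scale (SE 0.28, adjusted p = 0.0184, edgeR) and that of SPP1 by 1.22 (SE 0.18, adjusted p = 4.1e-07, edgeR). The section of the male of batch 2 without a matrix held 24 MRGPRX1 UMIs in 23 spots by the authors' deposited table. In spots outside tissue 59 MRGPRX1 UMIs were counted.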

How the results depend on the processing

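The number of genes called was the least stable value. For positive against free spots (1427 calls), DESeq2 gave 527, limma-voom 810, a minimum of 3 MRGPRX1 UMIs 780, free spots matched on UMIs 723, spots thinned to 2000 UMIs 325, and leaving out a specimen or a section 743 to 1612. Among neuron-rich spots (948 calls) the same settings gave 348, 390, 352, 485 and 113, with 420 to 1115 on leaving out a specimen or a section, 379 with a cut at the top 10% and 624 with sums per section. For touching spots (539), DESeq2 gave 169, sums per section 239, and leaving out a section 252 to 553. The batch term (8) gave 0 with DESeq2, 21 at a minimum of 1 UMI, 3 without the filter, 2 with sums per section and 1 to 9 on leaving out a section; the sex term gave 0 to 1. The positive share (1.91%) was 8.89% at a minimum of 1 UMI, 0.589% at 3, 0.0896% after thinning and 1.42% to 2.1% on leaving out a section. Fewer spots or UMIs enter under the matched, thinned and 3-UMI settings; for the tools the cause was not tested.

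The title code is a pairing block, since both classes come from sections of 1 title code. With no replicate block, 52 genes were called between positive and free spots and 75 among neuron-rich spots.

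Of 1660 values of 53 named genes under alternatives of the first comparison, 1483 stayed called in their direction, 177 lost the call and 0 reversed. Among neuron-rich spots 1215 of 1352 stayed, 136 lost the call and 1 reversed: CALCA at -0.0187 (adjusted p = 0.974) without the female of batch 2, in a range up to 0.4448 on leaving out a specimen or a section. TMM in place of library totals moved the median of all genes by under 0.1 on the log2 scale.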

Other observations

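One section labelled Papio anubis had 7 positive spots of 1218 qualifying spots, with 101431 UMIs, and 1167 free spots. Its feature identifiers carry the Ensembl prefix of M. mulatta, so labels and files may be crossed between these species. With 1 section there is no test, and the intervals below cover counting error only. NEFH was at 2376 CPM in positive and 6830 CPM in free spots, a ratio of 0.348 (exact 95% interval 0.305 to 0.395). CHRNA3 was at 108 against 15.0 CPM (ratio 7.24, 3.54 to 13.3) and CALCB at 3135 against 1784 CPM (ratio 1.76, 1.57 to 1.96). GFRA2 had a ratio of 2.25 (1.19 to 3.88), CPNE5 of 3.61 (1.91 to 6.25), GNA14 of 3.28 (1.40 to 6.57) and CD55 of 1.84 (1.32 to 2.50). Other genes went against the direction seen in M. fascicularis or were not resolved: SCN11A had 1 UMI in positive spots and a ratio of 0.784 (0.0197 to 4.45), while TAC1 (1.32, 1.12 to 1.56) and SCG2 (1.56, 1.11 to 2.14) were higher. Of the 12 largest rises named in M. fascicularis, 11 were in the table, and for 4 of them the interval of the ratio lay above 1 and for 0 below it. Of the 10 largest falls it lay below 1 for 2, NEFH and NSG1, and above it for 0. The other intervals include 1, among them those of the 4 genes of each set with 0 UMIs in positive spots, which give no direction. The other section labelled Papio anubis had 4 qualifying spots, 0 of them positive.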
